A study of Daphnia pulicaria with 8 samples.

Results

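In Daphnia pulicaria, a water flea, 428 genes differed between Red and Pale adults in one direction in Doe lake and in the other direction in Long lake. The contrast was Red minus Pale in Doe minus Red minus Pale in Long, which sets the Doe Red and Long Pale libraries against the Doe Pale and Long Red libraries. It used 4 of the 8 libraries of a study that concerns hypoxia and metabolic phenotype, in which whole adults from the lakes Black, Doe, Long and Round were sequenced as 1 Red and 1 Pale library per lake. The labels used here give no strain, treatment, age or date, and each library holds RNA pooled from several animals. Genes were chosen by their values in these 4 libraries, so their differences in Doe and Long are a description with no test. Differences between Red and Pale in Black and Round were not used to choose them. Levels in Black and Round did enter the abundance filter, which averaged all 8 libraries.

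A gene was counted as opposed where Red minus Pale, in log2(FPKM + 1), was at least 1 in one of these lakes and at most -1 in the other. FPKM is the number of fragments for each kilobase of a transcript, relative to a library's total. Of 12865 genes averaging 1 FPKM or more, 315 were higher in Doe Red and Long Pale, which is 2.45%, and 113 were higher in Doe Pale and Long Red, which is 0.878%. By the same rule, opposed genes numbered 428 for Doe and Long and 240 for Doe and Round. The other 4 of the 6 pairs of lakes, some of which share a lake, had 113 to 160. The Doe and Long pair was picked with results of these data known, so its high count describes the choice. A pair's count also depends on how many genes differ in each lake. Genes higher and lower in Red by at least 1 numbered 724 and 696 in Doe and 506 and 1248 in Long. They numbered 306 and 994 in Black and 443 and 728 in Round.

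The exoskeleton of Daphnia is a cuticle of chitin fibres bound by a large family of cuticle proteins, laid over an epidermis that rests on a collagen-rich basement membrane. Adult Daphnia shed and rebuild this cuticle at each moult, in step with each brood. Arthropods use different cuticle proteins for different layers and phases of that cycle, so many members of the family are made for only part of it.

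Each library had 19274 to 21606 genes with a value above 0. One uncharacterized gene, Daplx7pEVm025448, took 41.0% to 48.1% of the summed FPKM in each library. The number of reads is not given, but the steps between low values put the depth of the Doe and Long libraries at 0.901 to 1.13 of that of Black Pale. Black Red was the deepest, at 1.85. The RNA came from whole animals, so fewer cells of a type and less RNA per cell cannot be told apart.

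**Figure D1:**
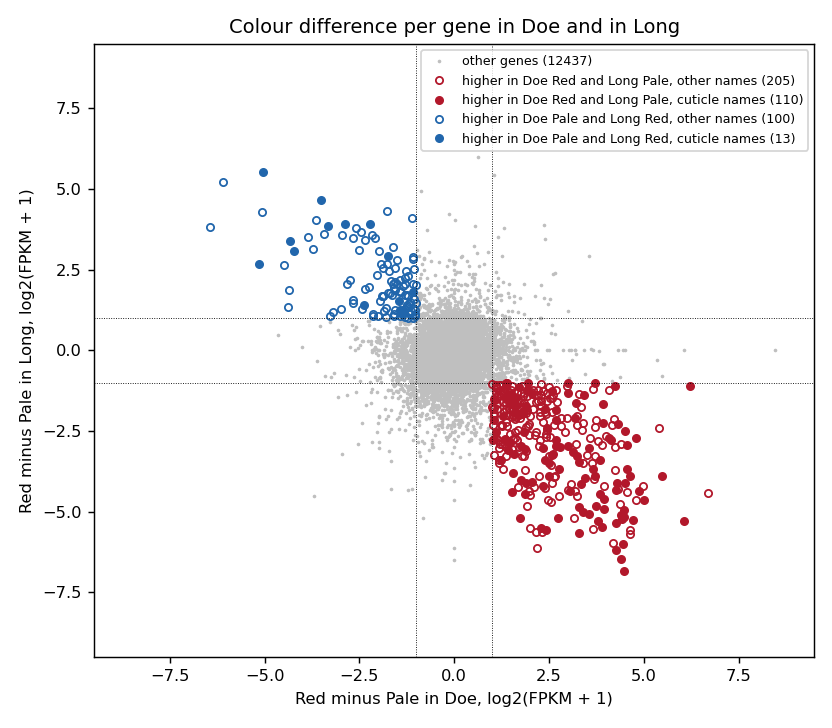
Red minus Pale in Doe (horizontal axis) against Red minus Pale in Long (vertical axis), both in log2(FPKM + 1), for 12865 genes, 1 point per gene. The dotted lines mark 1 and -1. The 315 genes at the lower right and the 113 genes at the upper left are the opposed genes, filled where the name is that of a cuticle protein.

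Over the 12865 genes, which all share the same 4 libraries, the Doe and Long differences had a Pearson correlation of -0.275 and a Spearman correlation of 0.020. Without the 243 cuticle genes the Pearson correlation was -0.153, and without the opposed genes it was 0.127. Leaving out the opposed genes must raise the correlation, since the rule takes genes of opposite sign.

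The 315 genes higher in Doe Red and Long Pale were most abundant in Doe Red and nearly absent from Long Red. Their summed level was 17092 FPKM in Doe Red and 6455 in Long Pale, against 2040.4 in Doe Pale and 418 in Long Red. The Black and Round libraries had 10413 in Black Pale, 8917 in Black Red, 5848 in Round Pale and 2608 in Round Red, inside the range set by Doe Red and Long Red. The median gene had 18.2 FPKM in Doe Red, 8.74 in Long Pale, 2.14 in Doe Pale and 0.42 in Long Red.

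Long Red stood at the low end gene by gene among these genes, which the rule chose as lower in Long Red than in Long Pale. It was below all 4 Black and Round libraries in 262 of the 315 genes and was the single lowest of the 8 libraries in 237, and 93 genes were listed at 0 FPKM there. Doe Pale was below all 4 Black and Round libraries in 183 genes. Doe Red was above all 4 in 183, whereas Long Pale was above them in 64 and below them in 8. The 4 libraries of the contrast stood in the order Doe Red, Long Pale, Doe Pale, Long Red in 238 genes. The rule sets Doe Red above Doe Pale and Long Pale above Long Red, so all these counts partly follow from the choice. Their shares over all genes were not computed.

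In the smaller group the rule makes Doe Red and Long Pale the low library of each lake. For the 113 genes higher in Doe Pale and Long Red, the summed level was 5489.7 FPKM in Doe Pale and 7763 in Long Red, against 1342 in Doe Red and 1413 in Long Pale. The Black and Round libraries held 4747 to 7415 FPKM, so Doe Pale and Long Red were within their range or just above it. Doe Red was below all 4 Black and Round libraries in 97 of the 113 genes and Long Pale in 95, whereas Long Red was above all 4 in 39 and Doe Pale in 16. These counts too partly follow from the choice, and their shares over all genes were not computed.

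Separation of the 4 libraries has no threshold on size, and libraries in random order also show it in a share of genes. Doe Red and Long Pale were both above Doe Pale and Long Red in 301 of the 315 genes, where 16.5% of all genes showed that order, and the reverse order held in 106 of the 113 genes, where 13.4% of all genes showed it. The rule used this contrast, so these counts describe the choice. The chosen genes were also more abundant than the rest, with a median over genes of mean FPKM of 8.67 and 18.4 in the larger and smaller group against 4.23 over all genes. Genes with no informative name made up 31.7% of the larger group and 59.3% of the smaller one, against 21.2% of all genes.

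**Figure D2:**
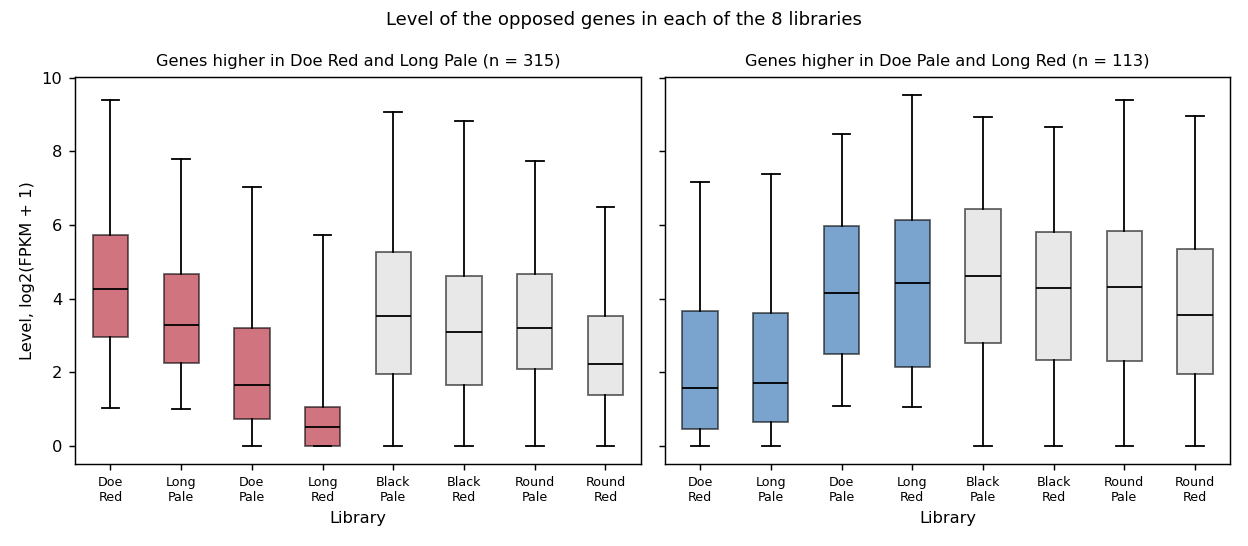
Level in log2(FPKM + 1) of the 315 genes higher in Doe Red and Long Pale (left) and the 113 genes higher in Doe Pale and Long Red (right) in each of the 8 libraries. Boxes span the quartiles over genes, the line is the median and the whiskers reach the lowest and highest gene. Long Red is the low library on the left, and Doe Red and Long Pale are the low libraries on the right.

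Cuticle proteins made up the largest named share of the genes higher in Doe Red and Long Pale. Of 243 cuticle protein genes analysed, 110 were in that group, or 45.3%, and 13 were in the opposite group, or 5.35%. Of the others, 1 was higher by at least 1 in Red in both lakes, 1 was lower in both, 37 passed that size in Doe alone, 34 in Long alone and 47 in neither. The median contrast over the 243 genes was 3.08, where it was 0.05 over all genes.

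Summed over the 110 genes, the level was 9252 FPKM in Doe Red, 2936 in Long Pale, 843 in Doe Pale and 96.7 in Long Red. It was 5649 in Black Pale, 5283 in Black Red, 2649.8 in Round Pale and 1157 in Round Red. Of the 110 genes, 41 were listed at 0 in Long Red and 5 in Doe Pale, while no gene was at 0 in Doe Red or Long Pale.

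Among the genes named pupal cuticle protein, Daplx7pEVm021492 had 83.7 FPKM in Doe Red and 38 in Long Pale, against 0.26 in Doe Pale and 0 in Long Red. Its levels in the other lakes were 109 in Black Pale, 64.7 in Black Red, 27.9 in Round Pale and 18.7 in Round Red. Red minus Pale was thus 6.07 in Doe and -5.29 in Long, and the difference in the other lakes was -0.75 in Black and -0.56 in Round. A further gene of that name, Daplx7pEVm059135, had 245 FPKM in Doe Red, 46.5 in Long Pale, 8.43 in Doe Pale and 0.25 in Long Red. In Black it had 44.6 in Pale and 172 in Red, and in Round 36.7 in Pale and 21.9 in Red, so its Black pair stood with Doe in sign and its Round pair with Long.

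The gene Daplx7pEVm017574, named for the chitin-binding domain of insect cuticle proteins, was among the most abundant. It had 616 FPKM in Doe Red and 132 in Long Pale, against 26.4 in Doe Pale and 0.17 in Long Red. Black had 241 in Pale and 431 in Red, and Round had 115 in Pale and 51.1 in Red. The gene named for the Drosophila cuticular protein 49Af, Daplx7pEVm019612, had 491 FPKM in Doe Red, 87.0 in Long Pale, 22.2 in Doe Pale and 0 in Long Red, with 148 in Black Pale, 451 in Black Red, 72.0 in Round Pale and 38.2 in Round Red. Long Red was the lowest library for both genes, and Doe Pale the next lowest.

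Other cuticle genes with large differences had the same order of libraries. The genes below are named cuticle protein or cuticle-like protein, except where said. Daplx7pEVm060131 had 293 FPKM in Doe Red, 103 in Long Pale, 12.4 in Doe Pale and 0.64 in Long Red. Daplx7pEVm022620 had 252, 46.0, 10.3 and 0.51 FPKM in those libraries, Daplx7pEVm021610, also named for the chitin-binding domain, had 262, 36.4, 11.3 and 0, and Daplx7pEVm020953 had 160.2, 34.6, 6.17 and 0. Daplx7pEVm018713, another pupal cuticle gene, had 101 FPKM in Doe Red, 24.2 in Long Pale, 2.14 in Doe Pale and 0 in Long Red. For each of these 5 genes the Black and Round libraries lay between 9.01 and 362 FPKM, above Long Red.

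The direction differed between families of cuticle proteins, as named. Of 93 genes named cuticle protein, 59 were higher in Doe Red and Long Pale and 0 in the reverse; of 54 named pupal cuticle protein the counts were 29 and 0. The 38 genes named cuticular protein divided into 11 and 9, the 27 endocuticle structural glycoproteins, first described from the abdominal cuticle of locusts, into 4 and 2, and the 15 cuticular proteins analogous to peritrophins into 2 and 0. Median contrasts were 4.61 for cuticle protein, 5.72 for pupal cuticle, -0.05 for cuticular protein, 0.75 for endocuticle glycoproteins and 1.52 for those analogous to peritrophins. Cuticle protein genes are similar copies that can share reads, so the sum is firmer than the level of a single member.

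The 13 cuticle genes of the reverse direction had a summed level of 1184 FPKM in Doe Pale and 1621 in Long Red, against 210.0 in Doe Red and 219 in Long Pale. Daplx7pEVm018423, the cuticular protein with the largest contrast among them, had 58.4 FPKM in Doe Pale and 55.0 in Long Red, against 0.79 in Doe Red and 0.21 in Long Pale. It had 93.0 in Black Pale, 67.0 in Black Red, 29.8 in Round Pale and 19.4 in Round Red, so only Doe Red and Long Pale were near 0. The more abundant Daplx7pEVm015772 had 172 FPKM in Doe Pale and 366 in Long Red, against 22.5 in Doe Red and 23.2 in Long Pale, with 189.8 to 265 in the Black and Round libraries.

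Further members of that direction were Daplx7pEVm019610, with 257 FPKM in Doe Pale, 160.5 in Long Red, 11.8 in Doe Red and 14.3 in Long Pale, and Daplx7pEVm014646, with 76.0, 262, 15.5 and 16.4. The 3 genes named cuticular protein precursor were all opposed in this direction, among them Daplx7pEVm011506 with 14.8 FPKM in Doe Pale, 24.5 in Long Red, 0.39 in Doe Red and 0 in Long Pale. Daplx7pEVm059053 had 96.0 FPKM in Doe Pale and 20.6 in Long Red, against 4.18 in Doe Red and 1.54 in Long Pale. The endocuticle glycoprotein Daplx7pEVm016335 had 228 and 275 FPKM in the high libraries and 67.8 and 35.5 in the low ones.

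Long Red was not short of all cuticle transcripts. The summed level of the 243 genes was 5339 FPKM in Long Red and 5001 in Doe Pale, within the 4544 to 12063 of the Black and Round libraries, and 13058 in Doe Red. Daplx7pEVm059063, a cuticular protein that was not opposed, had its highest level in Long Red, with 1073 FPKM against 639.7 in Long Pale, 386 in Doe Red and 299 in Doe Pale. Daplx7pEVm014463 had 862 FPKM in Long Red, 430.1 in Long Pale, 239 in Doe Red and 205 in Doe Pale. Both were chosen after their values were seen, as the most abundant cuticle genes of Long Red. The pupal cuticle gene Daplx7pEVm029046 was listed at 351 FPKM in Doe Red and at 0 in the other 7 libraries.

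**Figure D3:**
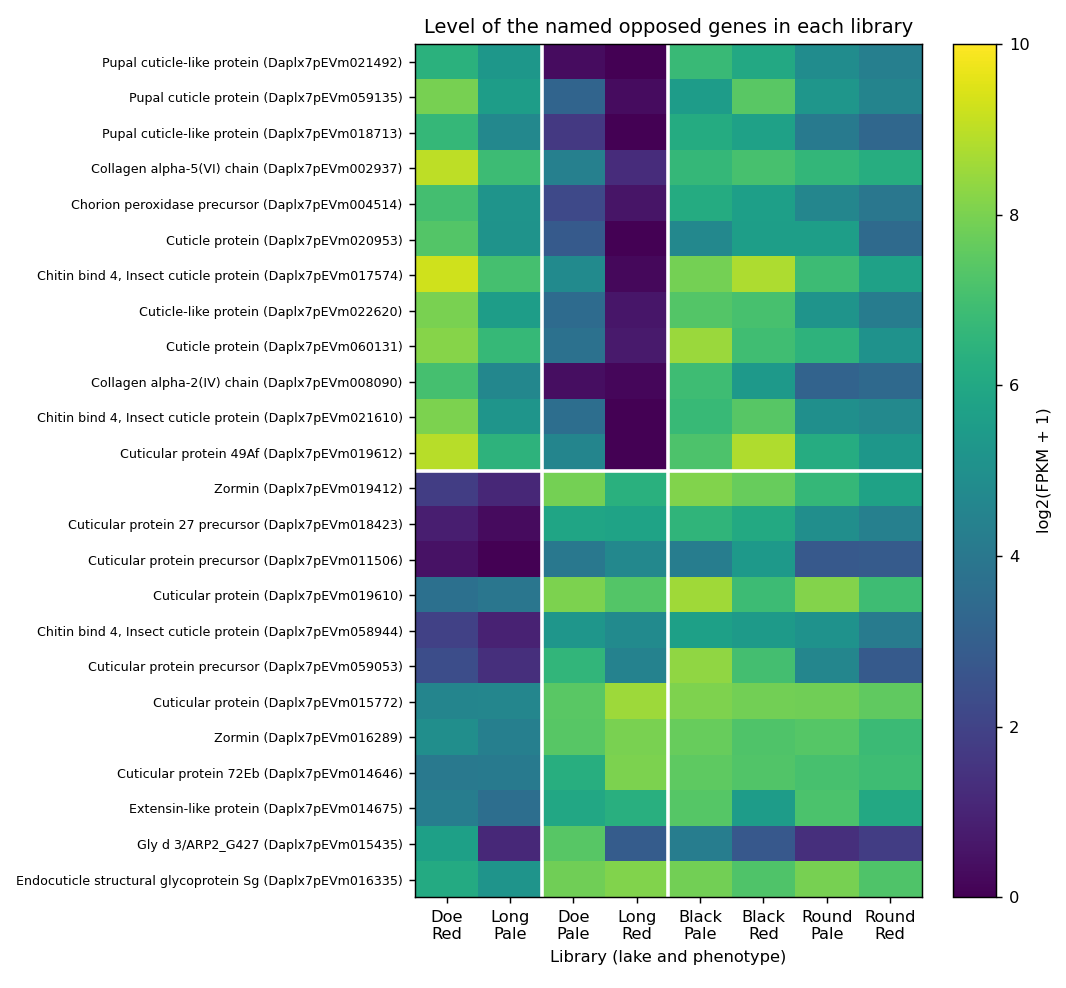
Level in log2(FPKM + 1) of the 12 named genes per direction with the largest differences in both lakes, 1 row per gene and 1 column per library. The upper rows are high in Doe Red and Long Pale, and the lower rows in Doe Pale and Long Red. White lines separate the high and low libraries of the contrast from the Black and Round libraries.

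Collagens went with the larger cuticle group. Of 64 genes for collagens and for the prolyl 4-hydroxylases that modify them, 14 were higher in Doe Red and Long Pale, or 21.9%, and 1 was in the reverse group. All 15 were collagens. Daplx7pEVm002937, named for a chain of collagen VI, a microfibril-forming collagen of vertebrates, had 507 FPKM in Doe Red and 115 in Long Pale, against 19.5 in Doe Pale and 1.42 in Long Red. It had 102 in Black Pale, 135 in Black Red, 96.8 in Round Pale and 74.8 in Round Red, so the other lakes stood near Long Pale and well above Long Red.

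Daplx7pEVm008090, named for collagen IV, the network-forming collagen of basement membranes, had the largest Doe difference of the opposed genes, 6.68. Its level was 130.5 FPKM in Doe Red and 23.5 in Long Pale, against 0.28 in Doe Pale and 0.13 in Long Red. Black had 119 in Pale and 41.2 in Red, whereas Round had 8.00 in Pale and 9.83 in Red. Daplx7pEVm006621 had 239.8 FPKM in Doe Red, 46.4 in Long Pale, 14.6 in Doe Pale and 1.57 in Long Red. The remaining collagens of the group ranged in Doe Red from 3.98 to 155 FPKM and in Long Red from 0 to 4.10.

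The list of chitin enzymes and chitin-binding peritrophins was close to the background, with 4 of 125 genes higher in Doe Red and Long Pale and 2 in the reverse. Both genes named Obstructor-A, which in Drosophila is a chitin-binding organiser of the cuticle matrix, were in the first group. Daplx7pEVm015418 had 327 FPKM in Doe Red, 128 in Long Pale, 130.2 in Doe Pale and 52.4 in Long Red, and Daplx7pEVm059706 had 48.3, 24.4, 16.5 and 6.54. The chitinase Daplx7pEVm008635, which breaks chitin down, had 14.7 FPKM in Doe Pale and 14.6 in Long Red, against 5.13 in Doe Red and 2.89 in Long Pale. The chitin synthases, which polymerise chitin, were not opposed: Daplx7pEVm000562 had 27.0 FPKM in Doe Red, 16.1 in Long Pale, 13.7 in Doe Pale and 11.8 in Long Red, and Daplx7pEVm000820 had 64.4, 68.4, 81.2 and 78.9.

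Several families outside the lists were chosen after their values were seen, so their counts are descriptions. Pro-resilin, the precursor of the rubber-like cuticle protein resilin, had 4 of 5 genes higher in Doe Red and Long Pale. Daplx7pEVm024161 had 29.7 FPKM in Doe Red and 18.4 in Long Pale, against 4.87 in Doe Pale and 0 in Long Red. Genes named Myosin regulatory light chain 2 smooth muscle were in that group in 4 of 5 cases. Daplx7pEVm059299 had 367 FPKM in Doe Red, 137 in Long Pale, 19.2 in Doe Pale and 1.20 in Long Red, while the fifth gene, Daplx7pEVm018864, had 315 to 523 FPKM in these 4 libraries.

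Genes named Neurotrophin 1 or Spz, the latter after the secreted Toll ligand Spätzle of Drosophila, included 10 of 20 in the larger group and 0 in the smaller one. Daplx7pEVm017090 had 50.9 FPKM in Doe Red and 42.4 in Long Pale, against 8.33 in Doe Pale and 0.73 in Long Red. Black and Round had 70.9 and 48.7 in Pale and 19.7 and 10.6 in Red. The peroxidase Daplx7pEVm004514, whose name comes from an enzyme that crosslinks the insect eggshell, had 129 FPKM in Doe Red, 35.3 in Long Pale, 3.65 in Doe Pale and 0.47 in Long Red. It was 1 of 3 opposed among 31 genes of that name.

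Zormin was the counterpart in the smaller group. It is a large titin-like protein of the muscle Z-disc in Drosophila, and 7 of 9 genes with that name were higher in Doe Pale and Long Red. Daplx7pEVm019412 had 239 FPKM in Doe Pale and 79.9 in Long Red, against 2.52 in Doe Red and 1.15 in Long Pale. Its levels were 273 in Black Pale, 204 in Black Red, 100.1 in Round Pale and 53.6 in Round Red, so only Doe Red and Long Pale were low. Daplx7pEVm016289 had 168 FPKM in Doe Pale and 251 in Long Red, against 30.1 in Doe Red and 18.7 in Long Pale. The most abundant, Daplx7pEVm015102, had 353, 697, 144 and 166 in those libraries.

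The list of muscle structure genes, whose name patterns take in neither Zormin nor the myosin regulatory light chains, had 0 opposed genes of 23, a count that a list of this size can have at the share of all genes. Their summed level was 1426 FPKM in Doe Pale, 1243 in Doe Red, 1894 in Long Pale and 1352 in Long Red. Paramyosin (Daplx7pEVm018843), a core protein of thick filaments and the member with the largest contrast, had 6.22 FPKM in Doe Red, 4.70 in Long Pale, 2.89 in Doe Pale and 2.14 in Long Red.

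Marker lists of other tissues and processes held few opposed genes. In 18 of 28 lists, with 820 genes in all, 0 genes were opposed, and their median contrasts ran from -0.37 to 0.37. Of all genes, 2.45% and 0.878% were opposed in the 2 directions, and the median contrast was 0.05. The 18 lists were grouped for having 0 opposed genes, so their joint count follows from the grouping. A small list can have 0 at those shares. The 18 lists were yolk proteins, germ line, DNA replication and histones, cytosolic and mitochondrial ribosomal proteins, hypoxia signalling, haem synthesis, glycolysis, tricarboxylic acid cycle, muscle, vision, chaperones, antioxidant enzymes, cytochrome P450, nuclear receptors, iron, proteasome and clock. Yolk genes summed to 2159.6 FPKM in Doe Pale, 1609 in Doe Red, 2100 in Long Pale and 2734 in Long Red, and germ line genes to 787, 583, 586 and 483. Their part in the cuticle result was not tested.

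The remaining lists had 1 to 3 opposed genes each. Their shares ran from 0 to 4.17% higher in Doe Red and Long Pale, against 2.45% of all genes. In the reverse direction they ran from 0 to 1.11%, against 0.878%. Such small counts say little about a list, and the members below are examples. Of 28 globins, the oxygen carriers of Daphnia blood, 1 was opposed: the di-domain haemoglobin Daplx7pEVm060678, with 7.16 FPKM in Doe Red, 9.78 in Long Pale, 2.16 in Doe Pale and 4.13 in Long Red. Summed globin levels were higher in Red in both lakes, at 3465 in Pale and 5343 in Red in Doe and at 2188 and 4272 in Long. Daplx7pEVm019090, a MAD2-type protein of the spindle checkpoint, was the 1 opposed gene among 52 of the mitosis list and had 3.15 FPKM in Doe Red, 2.60 in Long Pale, 0.62 in Doe Pale and 0.65 in Long Red. Of 172 digestive enzymes 3 were higher in Doe Red and Long Pale, among them the lipase Daplx7pEVm008801 with 7.98, 6.72, 1.82 and 0.40 FPKM.

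Of 28 genes named Neurexin IV, a septate junction protein in Drosophila, 1 was opposed in each direction, and the median contrast was -0.08. Daplx7pEVm013833 had 19.0 FPKM in Doe Red, 4.05 in Long Pale, 6.63 in Doe Pale and 0 in Long Red, and Daplx7pEVm015220 had 5.85, 6.75, 25.7 and 21.3. Among 147 immunity genes 2 were in the larger group and 1 in the smaller one. The C1q protein Daplx7pEVm019323 had 34.1 FPKM in Doe Red and 30.8 in Long Pale, against 8.16 in Doe Pale and 5.29 in Long Red. Of 90 respiratory chain genes 1 was opposed, an ATP synthase chain (Daplx7pEVm015058) with 5.34 FPKM in Doe Pale and 2.18 in Long Red, against 0 in Doe Red and 0.16 in Long Pale.

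**Figure D4:**
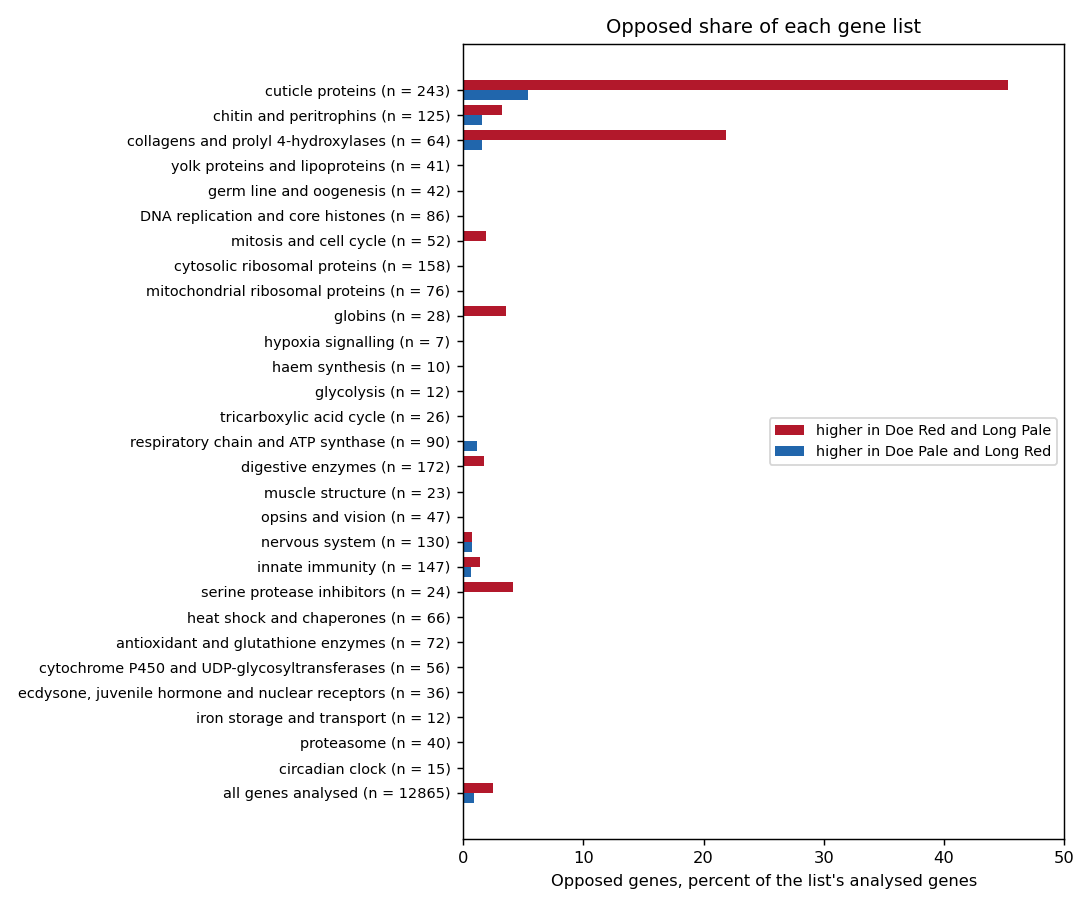
Percent of the analysed genes of each list that were higher in Doe Red and Long Pale (red bars) or in Doe Pale and Long Red (blue bars), with the number of genes in brackets. Cuticle proteins reach 45.3% and collagens with prolyl 4-hydroxylases 21.9%, against 2.45% of all genes.

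Of 36 genes for ecdysone, juvenile hormone and nuclear receptors, 0 were opposed, which is near the share of all genes for a list of that size. The member with the largest contrast was the receptor of ecdysis triggering hormone, a peptide that starts shedding in insects (Daplx7pEVm017345). It had 9.33 FPKM in Doe Red and 4.32 in Long Pale, against 0 in Doe Pale and 8.95 in Long Red, so it was higher in Red in both lakes, with 29.1 in Black Pale and 0 in Black Red. Ecdysone-induced protein 78C (Daplx7pEVm002756), an early response gene of the moulting hormone in Drosophila, fell just outside the rule, with 2.68 FPKM in Doe Red and 3.79 in Long Pale against 0.83 in Doe Pale and 1.40 in Long Red. Eclosion hormone (Daplx7pEVm018946), which triggers shedding behaviour in insects, had 1.28 FPKM in Doe Red, 1.26 in Long Pale, 1.01 in Doe Pale and 0.19 in Long Red. The early gene FTZ-F1 beta (Daplx7pEVm001919) had 11.3, 14.5, 13.8 and 16.1 FPKM, so its 4 libraries were close. The last 2 genes fall outside the naming rule, and contrasts of moulting genes outside it had both signs. They were 1.11 for eclosion hormone, 1.07 for SGT1 ecdysoneless and 1.05 for an ecdysone-induced protein (Daplx7pEVm011534). For FTZ-F1 beta, the bursicon precursor and partner of bursicon they were -0.41, -0.94 and -0.60.

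Of the genes at the edge of the rule, the collagen Daplx7pEVm015103 was just inside, with 3.98 FPKM in Doe Red, 3.18 in Long Pale, 1.49 in Doe Pale and 0.24 in Long Red, a Doe difference of 1.00. The homeobox gene Daplx7pEVm010640 was just outside, with 6.64, 7.75, 2.83 and 0.34 FPKM. In the reverse direction the uncharacterized gene Daplx7pEVm025153 was just inside, with 3.23 FPKM in Doe Pale, 1.79 in Long Red, 1.10 in Doe Red and 0 in Long Pale. Daplx7pEVm059035 was just outside, with 35.1, 114, 17.3 and 12.2.

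Some of the largest differences belonged to genes with no informative name. Daplx7pEVm015468 had 516 FPKM in Doe Red and 108 in Long Pale, against 19.9 in Doe Pale and 1.11 in Long Red, and Daplx7pEVm062519 had 115, 26.0, 4.58 and 0. Daplx7pEVm016404 had 105 FPKM in Doe Pale and 24.3 in Long Red, against 0.23 in Doe Red and 0.78 in Long Pale, and Daplx7pEVm060662 had 36.9 and 42.5 against 0.13 and 1.20.

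The isoform table gave the same signs in most cases. Of 699 isoforms of the larger group analysed, 93.7% had the signs of their gene in both lakes, as did 89.0% of 246 isoforms of the smaller group. Gene values are the sums of these isoforms, so this shows how the signs were spread within genes and is not independent of them.

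In Round, most genes of the larger group were lower in Red, as they were in Long. In Black, the share lower in Red was near that of all genes in the deposited values, while large differences were more frequent. Of the 315 genes higher in Doe Red and Long Pale, 281 were lower in Red in Round, or 89.2%, against 52.8% of all genes. In Black 207 were lower in Red, or 65.7%, against 68.4% of all genes. By at least 1, 30.5% were lower and 11.7% higher in Black, against 7.73% and 2.38% of all genes. In Round these shares were 45.7% and 2.54%, against 5.66% and 3.44%. Red was lower in both lakes for 186 genes, or 59.0% against 38.8% of all genes, and higher in both for 12, or 3.81% against 17.1%. The median Red minus Pale was -0.46 in Black and -0.88 in Round, against 2.25 in Doe and -2.50 in Long. Over all genes the medians were -0.19 in Black and -0.03 in Round.

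Black and Round differed in how they placed the cuticle genes. Of the 110 cuticle genes of this group, 106 were lower in Red in Round, or 96.4%, and 4 were higher. In Black 69 were lower, or 62.7%, a smaller share than the 68.4% of all genes, and 41 were higher. Differences of at least 1 ran both ways in Black: 33.6% of the 110 genes were lower in Red by that much and 19.1% higher, against 7.73% and 2.38% of all genes. In Round 49.1% were lower by at least 1 and 0 genes higher, against 5.66% and 3.44% of all genes. A pair of cuticle genes was close to 0 in Black, chosen after that was seen. Daplx7pEVm006694 had 0 FPKM in Black Pale, 0.73 in Black Red, 34.9 in Round Pale and 11.4 in Round Red, and Daplx7pEVm024421 had 0, 0.41, 24.99 and 15.7.

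For the 113 genes higher in Doe Pale and Long Red, 80 were lower in Red in Black, or 70.8%, near the 68.4% of all genes, and 82 in Round, or 72.6%, against 52.8%. The medians were -0.44 in Black and -0.45 in Round, against -1.69 in Doe and 1.88 in Long. Red was lower in both lakes for 65 of them, or 57.5% against 38.8% of all genes. Red was higher in both for 16, or 14.2% against 17.1%. By at least 1, 23% were lower in Red and 6.19% higher in Black, against 7.73% and 2.38% of all genes. In Round these shares were 18.6% and 2.65%, against 5.66% and 3.44%.

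Red against Pale in Black and Round was tested over all genes with limma, with lake as a block, 4 libraries and 1 residual degree of freedom, two-sided, with Benjamini-Hochberg adjustment. It called 0 of 12865 genes, or 0%, and the smallest adjusted p was 0.181. At unadjusted p under 0.05, 1041 genes were lower in Red, or 8.09%, and 228 were higher, or 1.77%. Of the larger group, 129 were lower, or 41.0%, and 5 higher, or 1.59%. Of the smaller group, 39 were lower, or 34.5%, and 4 higher, or 3.54%. Without the lake block but with all 4 libraries, 544 of all 12865 genes were lower in Red at that p. Of these, 57 were in the larger group and 24 in the smaller one. Fits that left out 1 library, with no block, hold 1 library of a phenotype. They gave fewer such genes than the main fit in both groups and over all genes. No single gene passed the adjusted threshold, and the p-values measure only the spread between these 2 lakes.

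Among the members with the smallest p, chosen after it was seen, were Spz1 (Daplx7pEVm017090), with Red minus Pale of -1.94 ± 0.24 (SE) on the log2 scale, and the cuticle gene Daplx7pEVm021361, with -1.75 ± 0.23, both with a limma adjusted p of 0.181. The mitotic kinase polo (Daplx7pEVm012641), an opposed gene that the name patterns of the mitosis list did not take in, stood at -1.75 ± 0.23 with the same adjusted p. It had 66.9 FPKM in Black Pale, 19.7 in Black Red, 34.4 in Round Pale and 9.28 in Round Red, and 28.7 in Long Pale against 0.57 in Long Red. Doe alone had the reverse order, with 7.58 in Pale and 35.7 in Red.

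Scaling bears on the Black values. Over all genes, the median Red minus Pale in Black was -0.19 in the deposited values, -0.01 after division by size factors and 0.03 after quantile normalization, and the Black values above are to be read against it. For the larger group the Black median was -0.46, -0.30 and -0.26 under these scalings, and for the smaller group -0.44, -0.27 and -0.22. After size factors or quantile normalization, both groups were thus below a median of all genes that was near 0. The direction of the medians of both groups in Black and Round did not change under any scaling tried.

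**Figure D5:**
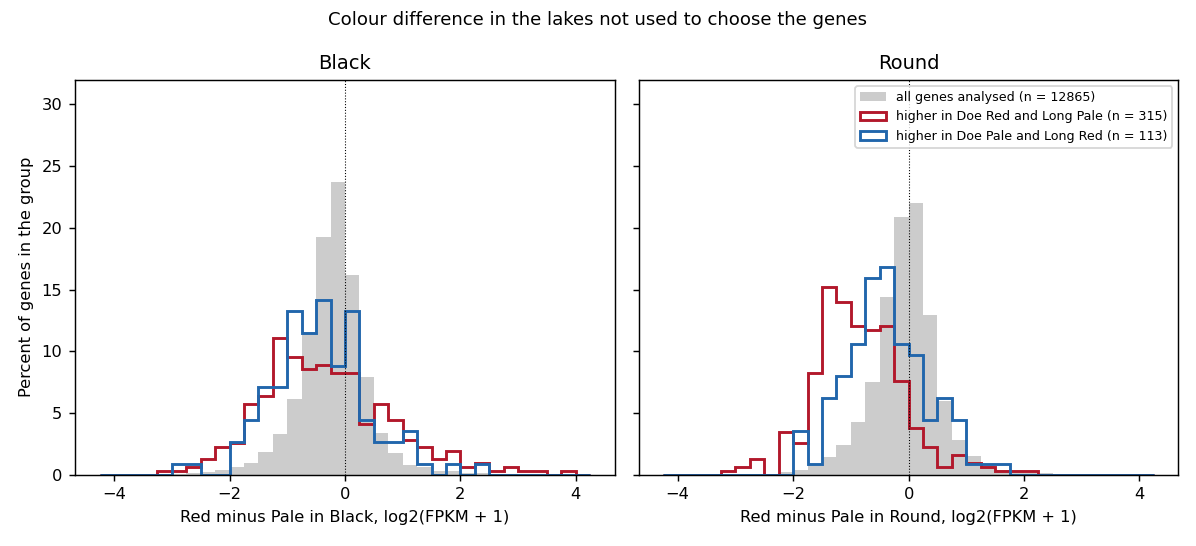
Red minus Pale in log2(FPKM + 1) in Black (left) and Round (right), as the percent of genes in each group that fall in each bin. Grey is all 12865 genes, red the 315 genes higher in Doe Red and Long Pale, and blue the 113 genes higher in Doe Pale and Long Red. The medians of both coloured groups lie below 0 in both lakes, from -0.88 to -0.44, and some genes of each group lie above 0.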

How the data were processed

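The authors deposited FPKM values with 2 decimals for 33069 genes and for their isoforms in 8 libraries. Per the labels' protocols, 30 animals per lake went into preservative, and directional libraries were built after depletion of ribosomal RNA; the labels do not say if 30 is per phenotype. Trimmomatic is named per the submitters' processing notes; aligner, quantifier and genome build are not given in the sources used here. The authors' deposited log2 ratio columns were not used. Deposited gene values equalled the sum of their isoforms to within 0.04.

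Differences were taken on log2(FPKM + 1), a scale that shrinks changes of low genes, among genes averaging 1 FPKM or more over the libraries. limma 3.58.1 in R 4.3.3 was run with a mean-variance trend, after a test on simulated data. Relative depth is the commonest ratio of low FPKM values among genes with 1 isoform. The pair of lakes, the members and the 28 name-pattern lists were chosen with earlier results of these data known. After names were seen, 3 patterns were corrected. Named genes were ranked by the smaller of the Doe and Long differences, 12 per direction with at most 2 per identical name, plus 2 unnamed, those at the threshold, and up to 3 per list, or its member with the largest contrast. Sequences and coordinates are not used here.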

Additional observations from a re-analysis of the deposited data

Results flagged for a closer look

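Each of the following counts marks a difference between lakes: the Red and Pale libraries of Doe and those of Long differed in opposite directions. With 1 library per lake and phenotype, that difference was not tested. It held for 315 genes higher in Doe Red and Long Pale and for 113 genes higher in Doe Pale and Long Red. Cuticle proteins gave 110 and 13 of these, collagens 14 of the first, and Zormin genes 7 of the second.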

How the results depend on the processing

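Depth and replication limit these values: each lake and phenotype has 1 library, so no count of opposed genes has an error, and levels of single copies within gene families are less certain than sums. Red and Pale are paired by lake, and the limma fit of Black and Round has lake as its block. The replicate numbers, all 1, add no pairing beyond that block. No median of the opposed groups and no contrast of a named gene reversed in sign under any setting tried, and counts have no sign to reverse. The genes higher in Doe Red and Long Pale numbered 315 as reported, 165 with a pseudocount of 5, 206 with a mean of at least 5 FPKM, 133 with a threshold of 2 and 683 with 0.5, and 299 to 471 under the other settings. The reverse group numbered 113, with 203 and 53 for pseudocounts of 0.1 and 5, and 27 and 381 for thresholds of 2 and 0.5. A threshold of 2 left 65 and 8 cuticle genes and 6 collagens, and a pseudocount of 5 left 9 collagens. Medians in Black were -0.30 and -0.27 with size factors, for the larger and the smaller group, and -0.26 and -0.22 with quantile normalization. With no filter the Black medians were -0.39 and -0.33. The Round median of the smaller group was -0.26 with quantile normalization, -0.28 without the most abundant gene and -0.12 with a threshold of 0.5. limma called 0 genes in every fit. Genes of the larger group lower in Red at unadjusted p under 0.05 numbered 80 with no filter and 57 without the lake block, against 129. In the smaller group they numbered 24 with quantile normalization and 24 without the block, against 39. Over all genes they numbered 1128 of 33069 with no filter, 544 of 12865 without the block and 686 with quantile normalization, against 1041. Leaving out each library in turn, without the lake block because no residual degree of freedom was left with it, gave 29 to 75 and 13 to 21. Of 486 contrasts of named genes recomputed, 430 stayed within 1.5 times, 56 moved further and 0 reversed. A change of filter leaves a contrast as it was, so those recomputations are among the 430 by construction. A change of pseudocount cannot reverse the contrast of an opposed gene. The causes were not tested.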
